A study of Mus musculus with 2 samples.

Results

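The Lgr6 locus on mouse chromosome 1 was described from a list of macroH2A1.1-enriched regions of C2C12 cells, in the coordinates of build mm9. The regions were chosen by position, as those overlapping the 700 kb from 136600000 to 137300000 around the gene, which gave 14 of the 4330 regions on chromosome 1 and of the 50887 regions in all. The locus itself was chosen by a listed region of over 100 kb there, so its width, read counts and enrichment are given as a description and were not tested. Lgr6 was placed at about 136880000 to 137002000, a span of 122.0 kb whose borders are approximate.

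C2C12 is an established mouse myoblast line whose cells fuse into multinucleated myotubes when serum is withdrawn. The data were 1 library from chromatin precipitated with an antibody against macroH2A1.1 (the ChIP group) and 1 library from chromatin without antibody (the input group), both of wild-type cells. The source label of both libraries was myoblast, whereas their descriptions carry the letters DM, used in the growth protocol for differentiation medium, and the study places the profile in myotubes, so the neutral name C2C12 cells is used. The list holds no expression values, so the state of the cells could not be checked against marker genes, and the activity of Lgr6 was not analysed here.

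Lgr6 encodes a leucine-rich repeat-containing G protein-coupled receptor. Like its relatives Lgr4 and Lgr5 it binds R-spondins, secreted proteins that raise Wnt signalling by removing the ubiquitin ligases Znrf3 and Rnf43 from the cell surface, and it is known as a marker of epithelial stem cells in skin. MacroH2A1.1 is made by alternative splicing from the gene of the histone variant macroH2A1, which carries a large macrodomain beside its histone part. In this isoform the macrodomain can bind ADP-ribose, and macroH2A is typically spread over broad chromatin domains rather than narrow peaks.

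An annotation of the list's own build was not used here, so the structure of the gene is given in GRCm38 (GENCODE) only. There Lgr6 ran on the minus strand of chromosome 1 from 134983301 to 135105276, a length of 121.976 kb with 18 exons and 17 introns in the first listed of its 3 transcripts. Exons of this transcript made up 6.675 kb. The longest intron was the 4th, with 36.4 kb, and the first intron was 29.6 kb long. By length Lgr6 was number 161 of 1208 protein-coding genes on the chromosome, whose median length was 27.8 kb. The gene is therefore mostly intron, and a region that spans it lies mostly over intronic sequence.

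The domain described below reached past the upstream border of Lgr6, the end that holds its start site by the strand in GRCm38, so the sequence just before the start is shown. It is the 250 bases that precede the gene's start in RefSeq (GRCm38.p6, chr1:135105277-135105526, minus strand), written 5′ to 3′ with an E-box in capitals.
Lgr6 promoter: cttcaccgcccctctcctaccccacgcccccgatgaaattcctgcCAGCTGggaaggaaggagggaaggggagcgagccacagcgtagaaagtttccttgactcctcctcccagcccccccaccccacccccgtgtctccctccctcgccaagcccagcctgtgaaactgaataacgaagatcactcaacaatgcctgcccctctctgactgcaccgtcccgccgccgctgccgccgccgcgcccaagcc
The E-box, the letters CANNTG, is the general motif of basic helix-loop-helix factors such as MyoD, and it reads the same on both strands. It occurred 1 time in this window, as CAGCTG, from 205 to 200 bases before the start. Of 32851 mouse promoter windows of the same length, 66.2% held a CANNTG and 13.0% held a CAGCTG. The window held 16 CpG dinucleotides against a median of 6, and 25.4% of promoters held as many or more. Its GC content was 65.2% against a median of 52.4%. These letters were a description of the sequence and not of binding, since the list gives no position of reads within a region.

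The domain over Lgr6 extended from 136901201 to 137013000 in mm9, a width of 111.8 kb. It held 4303 reads of the ChIP library and 890 reads of the input library. These were 38.5 ChIP reads per kb (95% exact Poisson interval 37.3 to 39.7) and 7.96 input reads per kb (7.45 to 8.50). The deposited fold changes carry a single library factor of 1.45 for all regions, taken here as how much deeper the ChIP library was sequenced. With this factor the 890 input reads stood for 1290 reads at the depth of the ChIP library, and ChIP exceeded input 3.33-fold (95% exact Clopper-Pearson interval 3.10 to 3.59), which was 1.74 on the log2 scale. Intervals throughout cover counting error only and treat every read as independent. Reads copied by PCR are not independent molecules, so the intervals can be too narrow. No value has an error between replicates because each group was 1 library. The caller's FDR was listed as 0.

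The borders of the domain did not coincide with those of Lgr6. On the upstream side it ran 11.0 kb beyond the gene's border, and 90.2% of its width lay inside the gene. On the downstream side it ended within the gene, 1.4 kb short of a second wide region that extended from 136876801 to 136899800 and was 23.0 kb wide. This neighbour covered the 3′ part of the gene and ran 3.2 kb past its downstream border. The domain covered 82.6% of the Lgr6 span and the neighbour 16.2%. Together 120.6 kb of the 122.0 kb span, or 98.9%, lay within listed regions, and the uncovered part was the 1.4 kb between them. Listed regions thus spanned nearly the whole length of the gene, from before its start to past its end by its approximate borders. The list gives counts for whole regions, so it does not show whether every part of them was enriched.

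The 23.0 kb neighbour held 716 ChIP reads and 235 input reads. Its ChIP density was 31.1 reads per kb (28.9 to 33.5) and its input density was 10.2 reads per kb (8.95 to 11.6). Its enrichment was 2.10-fold (1.81 to 2.45), and the caller's FDR was 1.79e-68. Both parts of the signal differed from the domain: the neighbour had fewer ChIP reads per kb and more input reads per kb, with no overlap of the counting intervals in either library. The interval of its fold likewise lay below that of the domain. The region over the 3′ part of Lgr6 was therefore listed at a lower enrichment than the region over the rest of the gene. Each fold is for a whole region, part of which lies outside the gene, so enrichment along the gene was not resolved.

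**Figure D1:**
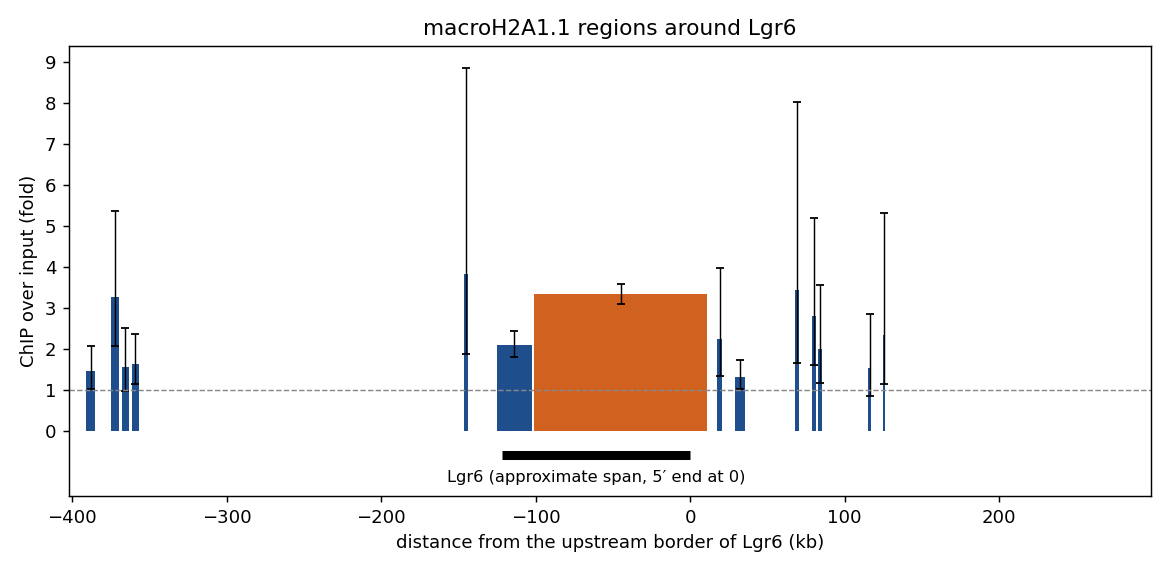
Listed macroH2A1.1 regions around Lgr6, by distance in kb from the gene's upstream border (negative values run into the gene), with ChIP over input as fold on the vertical axis. Bar widths are region widths to scale, whiskers are 95% exact intervals of counting error, the orange bar is the domain and the black line the approximate Lgr6 span. The domain at 3.33-fold and its 23.0 kb neighbour at 2.10-fold fill the gene, and the other 12 regions are narrow with wide intervals.

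The other 12 regions of the window were much smaller. Their widths ran from 1.2 to 7.0 kb with a median of 3.1 kb, near the median of 3.4 kb over all regions of chromosome 1. They held 34 to 169 ChIP reads and 9 to 88 input reads each, at 14.3 to 28.3 ChIP reads per kb and 3.75 to 12.6 input reads per kb. Their fold ran from 1.32 to 3.83 with a median of 2.12. Taken as one, the 12 regions held 901 ChIP and 333 input reads over 43.2 kb, an enrichment of 1.87-fold (1.64 to 2.12). The domain stood apart from them in ChIP density, at 38.5 against a pooled 20.9 reads per kb, and hardly in input density, at 7.96 against 7.71 reads per kb.

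On the upstream side of the domain lay 7 of the other regions. The nearest began 6.6 kb from the domain, at 137019601 to 137022800, with 62 ChIP and 19 input reads and a fold of 2.25 (1.33 to 3.99). After 8.0 kb followed 137030801 to 137037800, the widest of the 12 at 7.0 kb, with 169 ChIP and 88 input reads. Its fold of 1.32 (1.02 to 1.73) was the lowest of the window and its input density of 12.6 reads per kb the highest. Farther out, 137070201 to 137072200 held 45 and 9 reads (3.45-fold, 1.66 to 8.02). The next region, 137081001 to 137083400, held 65 and 16 reads (2.80-fold, 1.60 to 5.19), and 137084601 to 137087600 held 55 and 19 reads (1.9965-fold, just under 2-fold, 1.17 to 3.56). With so few input reads the intervals of these regions are wide, and most reach the fold of the domain. The last pair, 137117401 to 137119400 with 40 and 18 reads (1.53-fold, 0.859 to 2.84) and 137126801 to 137128000 with 34 and 10 reads (2.34-fold, 1.13 to 5.32), ended the group. Beyond them no region was listed for 461.6 kb, until 137589601 to 137591800 outside the window, with 46 ChIP and 20 input reads (1.59-fold, 0.920 to 2.83).

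On the downstream side, beyond the 23.0 kb neighbour, a single small region at 136855801 to 136858200 lay 18.6 kb away. It held 50 ChIP and 9 input reads, and its fold of 3.83 (1.87 to 8.86) was the highest of the window, on only 9 input reads. Then no region was listed for 210.8 kb, from 136645001 to 136855800. Past this stretch lay 4 regions close together. The first from the gene, 136640401 to 136645000, held 104 and 44 reads (1.63-fold, 1.14 to 2.38). The next, 136634201 to 136638600, held 63 and 28 reads (1.55-fold, 0.980 to 2.52). Higher enrichment was listed for 136627201 to 136632200, with 109 and 23 reads (3.27-fold, 2.07 to 5.37). The last, 136611001 to 136617000, held 105 and 50 reads (1.45-fold, 1.02 to 2.07). Just outside the window, 136594201 to 136600000 held 98 and 37 reads (1.83-fold, 1.24 to 2.74) and ended exactly at the window's first border.

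Of the 12 small regions, 2 had a higher fold than the domain and the intervals of 7 reached its value of 3.33. Enrichment as a ratio therefore did not set the domain apart from every small region. Its ChIP density exceeded those of all 12, as did its width, for which the locus was chosen. The counting interval of the ChIP density of 137126801 to 137128000 (19.6 to 39.6 reads per kb), on 34 ChIP reads, reached that of the domain. Of the 14 regions of the window, 8 were enriched 2-fold or more, where 61.3% of all listed regions were. In an exact two-sided binomial test that takes the sampling error of the input into account, with Benjamini-Hochberg adjustment over the whole list, 12 of the 14 were called, where 85.0% of all regions were. This test compares a pair of libraries and not conditions, and since the locus was chosen on the same contrast nothing is read from these counts. The regions not called were 136634201 to 136638600 (adjusted p = 0.0631 in the exact binomial test) and 137117401 to 137119400 (adjusted p = 0.151 in the same test).

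**Figure D2:**
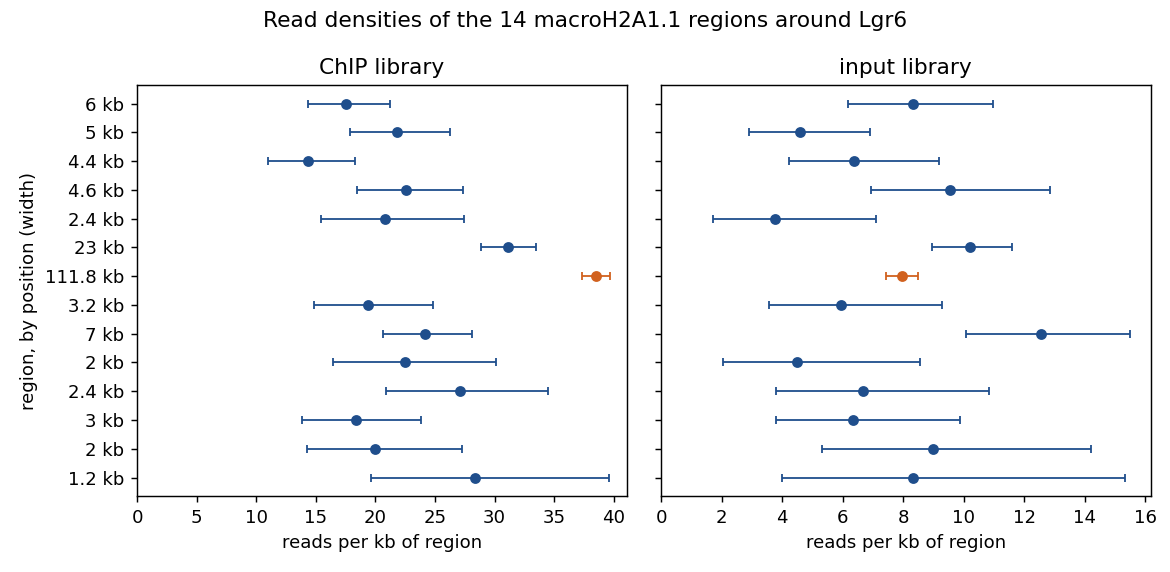
Reads per kb of the ChIP library (left) and of the input library (right) in the 14 regions around Lgr6, listed from top to bottom in order of position and named by width. Points are the counts divided by width and whiskers the 95% exact Poisson intervals. The domain (orange) has the highest ChIP density at 38.5 reads per kb, while its input density of 7.96 lies within the range of the others.

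Listed regions covered 178.0 kb of the 700 kb window, or 25.4%. The domain alone made up 62.8% of this covered length. It held 72.7% of the 5920 ChIP reads and 61.0% of the 1458 input reads that fell into the regions of the window. Its share of ChIP reads was thus above its share of the length, and its share of input reads close to it. When chromosome 1 was tiled into 280 windows of the same length, the median covered share was 4.71% and the highest 75.1%, and the Lgr6 window would have been number 32. By number of regions it would have been number 120, with 14 against a median of 9. The Lgr6 window thus stood higher by covered length than by number of regions. The locus was chosen for its wide region, which made up most of the covered length, so nothing is read from this difference.

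The longest stretches without regions on each side of the domain were long for the chromosome. Each was the longest of several gaps on its side and is ranked here against single gaps, which favours a high place. Neighbouring regions of chromosome 1 were separated by a median of 5.4 kb. The 461.6 kb stretch on the upstream side was longer than 98.8% of the 4329 gaps of the chromosome, with 51 longer. The 210.8 kb stretch on the downstream side was longer than 96.9% of them, with 132 longer. In 30 bins of 100 kb around the upstream border of Lgr6, the bin that runs from the border into the gene was covered over all of its length. The next highest bins held 73.4 and 72.8 kb, both over 1000 kb away on the downstream side, 8 bins held none, and the median was 14.3 kb. The locus was chosen for a region of over 100 kb, and the bins were counted from a border that the domain crosses. The full bin follows largely from this choice, so nothing is read from its place among the bins.

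**Figure D3:**
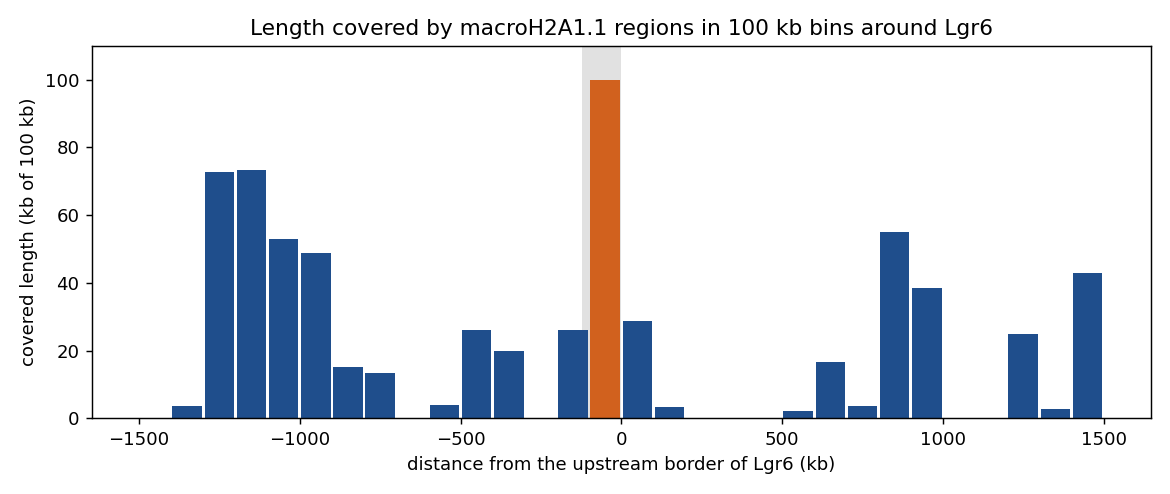
Length covered by listed macroH2A1.1 regions, in kb, in consecutive bins of 100 kb around the upstream border of Lgr6 at 0 (negative distances run into and past the gene). The orange bin lies inside Lgr6, whose approximate span is shaded, and is covered over its whole length. No other bin exceeds 73.4 kb and bins without any region lie on both sides. The locus was chosen for its wide region, so nothing is read from the full bin.

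The domain was next set beside the 28 other regions of chromosome 1 that were wider than 20 kb, which include its 23.0 kb neighbour. These were 20.2 to 47.2 kb wide, with a median of 24.0 kb. The domain was 2.37 times as wide as the next. That region, 92005401 to 92052600, was 47.2 kb wide with 1428 ChIP and 303 input reads, and its fold of 3.25 (2.87 to 3.69) was close to that of the domain. The others among the 5 widest were 35975201 to 36016000 (40.8 kb, 2.13-fold), 90122001 to 90161200 (39.2 kb, 1.13-fold), 63941201 to 63972800 (31.6 kb, 2.49-fold) and 133632001 to 133663200 (31.2 kb, 3.28-fold). Width did not order these regions by enrichment: the 39.2 kb region had 33.3 ChIP reads per kb but also 20.3 input reads per kb, the highest input density of the 29, and a fold near 1. Just inside the limit of 20 kb lay 94170601 to 94190800 (20.2 kb, 3.28-fold), and just outside it lay 164839201 to 164858800 (19.6 kb, 2.69-fold).

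By enrichment the domain was number 3 of 29. Above it were 133695201 to 133719200 (24.0 kb), with 553 ChIP and 104 input reads and a fold of 3.67 (2.97 to 4.57), and 182381801 to 182409600 (27.8 kb), with 985 and 190 reads and a fold of 3.58 (3.06 to 4.20). Their intervals overlap that of the domain, so this order is not resolved at this depth. The next in order were 94170601 to 94190800, 133632001 to 133663200 and 92005401 to 92052600, already named, at 3.28, 3.28 and 3.25-fold. Of the 28 regions, 13 had intervals that overlapped that of the domain, 15 had intervals below it and 0 above it. The median fold of the 28 was 2.50, and taken as one, with 19860 ChIP and 5901 input reads, they were enriched 2.32-fold (2.25 to 2.39).

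The parts of the ratio were also set side by side. In ChIP density the domain was number 1 of 29, at 38.5 reads per kb against 19.6 to 36.9 in the others (median 25.0), which was 1.54 times their median. The closest was 133632001 to 133663200 at 36.9 reads per kb (34.8 to 39.1), and it was 1 of 3 regions whose counting intervals reached that of the domain. In input density the domain was number 8, at 7.96 reads per kb against 4.33 to 20.3 (median 7.02), or 1.13 times the median. The domain thus stood at the top of this set by ChIP reads, with an input density a little above the median. In all it held 1.07% of the ChIP reads and 0.700% of the input reads in the regions of chromosome 1, on 0.588% of their covered length. Among all 4330 regions of the chromosome, most of them narrow, it was number 18 by ChIP density, 914 by input density and 668 by fold.

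**Figure D4:**
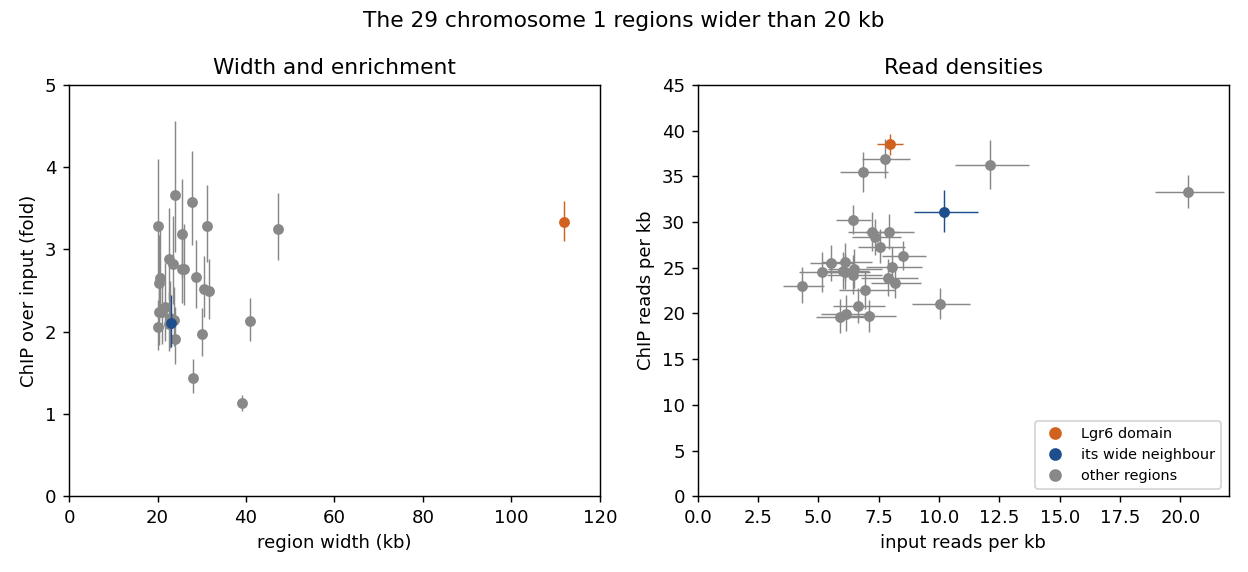
The 29 regions of chromosome 1 wider than 20 kb, plotted as fold enrichment against width in kb (left) and as ChIP against input reads per kb (right). Points are regions, lines are 95% exact intervals of counting error, orange is the domain and blue its 23.0 kb neighbour. The domain is far to the right by width at 111.8 kb, with several regions at a like fold, and highest by ChIP density.

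The surroundings of the domain were sparse beside those of most other wide regions. In the 100 kb on either side, listed regions covered 25.4% on the side of the gene body, mostly by the 23.0 kb neighbour. They covered 17.6% on the upstream side, for a mean of 21.5%. The same mean was 10.2 to 85.1% around the 28 other wide regions, with a median of 46.9%. Only 90122001 to 90161200 (10.2%) and 162061801 to 162082400 (15.1%) had less. Some of the 28 lie within 100 kb of each other, such as 92295001 to 92317600 (82.6%) and 92348801 to 92374400 (80.8%). Their means are therefore not independent. Of the 28, 7 had listed regions 2 kb or less away on both sides. How sparse the flanks appear thus depends in part on where the caller ended a region. Next in line along the chromosome, on the low side, the nearest wide region after the 23.0 kb neighbour was 135921201 to 135951800 (30.6 kb, 2.52-fold), 949.4 kb away. On the high side the nearest was 162061801 to 162082400 (20.6 kb, 2.66-fold), 25048.8 kb away, and the next 182381801 to 182409600. Apart from its neighbour, no region over 20 kb thus lay within the window.

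How wide the domain appears depends on where the caller ended a region. When regions within 5 kb were joined, the domain and its neighbour became 1 stretch from 136876801 to 137013000. It was 136.2 kb wide, 99.0% of it within listed regions, and enriched 3.08-fold (2.88 to 3.29). Joining within 10 kb extended it on the upstream side to 137037800, for 161.0 kb, of which 90.1% was covered, at 2.94-fold (2.76 to 3.13). Other stretches of chromosome 1 grew more: the widest was then 219.0 kb with 18 regions, or 658.2 kb with 60 regions. By joined width the Lgr6 stretch was number 6 and number 11 on the chromosome. The Lgr6 stretch held 2 regions after joining within 5 kb and 4 after joining within 10 kb.

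Over all chromosomes 407 regions were wider than 20 kb, and the domain was number 3 by width. Both wider ones lay on chromosome 8, at 244.4 and 205.2 kb, with 12.5 and 17.5 input reads per kb and folds of 2.27 and 1.44. The only other region over 100 kb was on chromosome 9, 61649401 to 61752600 (103.2 kb), with 30.9 ChIP and 7.57 input reads per kb and a fold of 2.81 (2.60 to 3.04). The widest region with a higher fold than the domain was on chromosome 6, 100014801 to 100104400 (89.6 kb), with 37.7 and 6.22 reads per kb and a fold of 4.18 (3.82 to 4.58), an interval above that of the domain. Among the 4 regions over 100 kb the domain had the highest fold, with no overlap of its interval with the other 3. By fold it was number 30 of the 407, by ChIP density 23 and by input density 220.

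The genes beside Lgr6 are given by their distances in GRCm38, and none was placed on the list. Past the 3′ end the first gene was Ube2t, a ubiquitin-conjugating enzyme of the Fanconi anaemia DNA repair pathway, at 9.14 kb. It was followed by Ppp1r12b, a regulatory subunit of myosin phosphatase, at 27.4 kb. Before the 5′ end the closest were Ptprv, a receptor-type tyrosine phosphatase gene annotated there as a processed transcript, at 3.22 kb and the antisense gene Gm10535 at 3.68 kb. Ptpn7, a tyrosine phosphatase of blood cells, followed at 27.4 kb, the small GTPase gene Arl8a at 41.5 kb and the orphan receptor gene Gpr37l1 at 55.0 kb. If these distances also hold in mm9, the 11.0 kb of the domain beyond the upstream border reach into Ptprv and Gm10535, and the 3.2 kb of the neighbour beyond the downstream border do not reach Ube2t. Whether the builds differ at this locus was not tested. The relatives and partners of Lgr6 (Lgr4, Lgr5, the 4 R-spondin genes, Znrf3 and Rnf43) were not analysed here, because their positions in mm9 were not used.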

How the data were processed

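ChIP and input libraries of C2C12 cells, 1 each, were compared. Reads were aligned by the authors to mm9 with Bowtie2 2.0.6 (version per the submitters' processing notes), and broad regions were called with SICER per the study's methods, the list being named after epic, a re-implementation. The deposited list gives, per region, counts of ChIP and input reads not scaled for library size, a p-value and FDR, and a log2 fold change after division by 1 library factor. Region starts lie on a 200 bp grid and regions at least 800 bp apart on chromosome 1, so the list's settings differ from the stated ones. In all, regions hold 4884176 ChIP and 1585463 input reads. Library totals are not given.

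Here positions were made 1-based, and counts per kb (exact Poisson), folds (exact Clopper-Pearson) and ranks were computed at 95% confidence with Python 3.11.15, pandas 2.3.3 and scipy 1.17.1, after tests on simulated data. The exact binomial test was two-sided. Named were all regions of the window and those next to it, the 5 widest, 5 most enriched and 2 nearest on each side among wide regions of chromosome 1, and genes next to Lgr6. Members and lists were chosen with earlier results of these data known. Alternatives were other filters, joining distances, borders, width limits and chromosome sets. No mm9 genome or annotation was used, and no coordinate was converted.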

Additional observations from a re-analysis of the deposited data

How the results depend on the processing

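No paired analysis was possible because ChIP and input are single libraries, and neither could be left out. Of 39 recomputed values, 14 stayed the same, meaning within 1.5 times for numbers of regions and ranks, within the counting interval for folds and densities, and without any change for widths and covered shares. The other 25 moved by these measures and follow. With a 2-fold filter the window held 8 regions and 21.6% coverage, and with the exact binomial test 24.5%. Joining within 10 kb left 6 regions and gave a domain of 161.0 kb, 2.94-fold and 32.6 ChIP reads per kb, and joining within 5 kb gave 136.2 kb. A window of double length was covered over 16.6%. With the Lgr6 borders moved 10 kb outwards or inwards, coverage was 94.2% or 98.6%. Relative to the average listed region, the fold was 1.57. These follow from how each alternative was built. By width the domain was number 3 of 407 over all chromosomes, and number 6 of 285 and 11 of 397 after joining within 5 and 10 kb, ranks chosen after seeing the data. By fold it was number 9 of 216 regions over 10 kb, 1 of 1 over 50 kb, 30 of 407 over all chromosomes and 30 of 319 without chromosome 8 from 80 to 100 Mb. By ChIP density it was number 23 and 10 in these last sets. By input density it was number 49, 1, 220 and 132 in the same order of 4 sets. ChIP stayed above input throughout, but a list of regions called as enriched over input fixes this in advance, so nothing is read from it. Single libraries limit every value: no spread between samples is known, and the small regions rest on as few as 9 input reads.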
